A study of Mus musculus with 4 samples.

Results

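A set of 10 genes of cytosolic nucleic acid sensing and necroptosis was followed through RNA-seq of 4 mouse B16 tumors, chosen by symbol from the 25239 genes of the tables. They are Ddx58, Ifih1, Dhx58, Mavs, Eif2ak2, Zbp1, Ripk1, Ripk3, Mlkl and Trex1. All 10 symbols were found, 9 had reads, and the same 9 passed the minimum of a mean raw count of 10 over the 4 libraries. The tumors grew under the skin, on each flank of B6 mice, from B16, a transplantable mouse melanoma line.

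Treatment started at day 7. The labels name 2 steps without spelling them out, ACT and, on the preceding day and in all groups, CTX by intraperitoneal injection. Tumor collection followed ACT by 12 days. CTX was the one library without T cells or virus, from animals whose left tumors got PBS, and the flank sampled is not stated. For the MV left tumor, free MV went directly into the tumor and TRP-1 T cells went intravenously. Remote tumor stands for the right tumors, not injected, of the mice in that treatment group. For TRP-1 T-MV, the intravenous TRP-1 T cells themselves carried MV. TRP-1 is a melanocyte protein. The source label names the cell line, while the extraction protocol speaks of tumor tissue. The tables' headers write MV as MYXV, the usual abbreviation of myxoma virus, a poxvirus. Each group had 1 library, so no test between groups was possible. An n of 2 is given in the labels, with no word on pooling.

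RIG-I-like receptors detect viral double-stranded RNA in the cytosol and signal through the mitochondrial adaptor MAVS to induce type I interferon. PKR, the product of Eif2ak2, is a kinase that binds the same kind of RNA and stops translation. ZBP1 binds left-handed nucleic acid and can recruit RIPK3, which phosphorylates MLKL, and MLKL then ruptures the plasma membrane in the cell death called necroptosis. RIPK1 links RIPK3 to tumor necrosis factor receptors. Poxviruses have DNA genomes but form double-stranded RNA in the cytosol during infection, and many of these genes are themselves induced by interferon.

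Total counts ran from 12375526 in the MV left tumor to 21790759 in the remote tumor. Levels are CPM, read counts relative to library size, after TMM scaling, which sets the libraries on a common scale. Intervals in brackets are 95% and cover counting error only, not differences between mice or preparations. Calls required a fold of at least 2 in either direction and an interval that excluded equal levels. Markers of the tumor itself were present in every library. The summed level of 7 melanocyte genes was 24700 CPM in CTX, 25100 in the remote tumor, 5740 in the MV left tumor and 5380 in TRP-1 T-MV, and none of the 7 was at 0. Reads on Rn45s, the ribosomal RNA precursor, with Lars2 and Rpph1 made up 0.141% of the total in CTX, 0.164% in the remote tumor, 1.64% in the MV left tumor and 1.62% in TRP-1 T-MV.

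Of the 9 measured members, Ripk3 and Dhx58 were called higher in the MV left tumor than in CTX, and Ripk3, Dhx58 and Zbp1 in TRP-1 T-MV. No member was called lower in either. Among all genes compared, 18.1% were called higher and 11.1% lower in the MV left tumor against CTX, and 18.5% and 11.7% in TRP-1 T-MV against CTX. The members' calls, 2 of 9 and 3 of 9, are to be read against those shares, and nothing particular to the members is drawn from them. The median log2 ratio of the 9 members was −0.02 in the MV left tumor and 0.25 in TRP-1 T-MV, beside −0.05 and −0.07 over all genes compared. On a housekeeping scale it was 0.47 and 0.76, beside 0.44 and 0.44 over all genes. In the remote tumor no member was called against CTX, where 0.453% of genes were called higher and 0.23% lower. The 3 comparisons share the CTX library, so their values are not independent of each other.

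**Figure D1:**
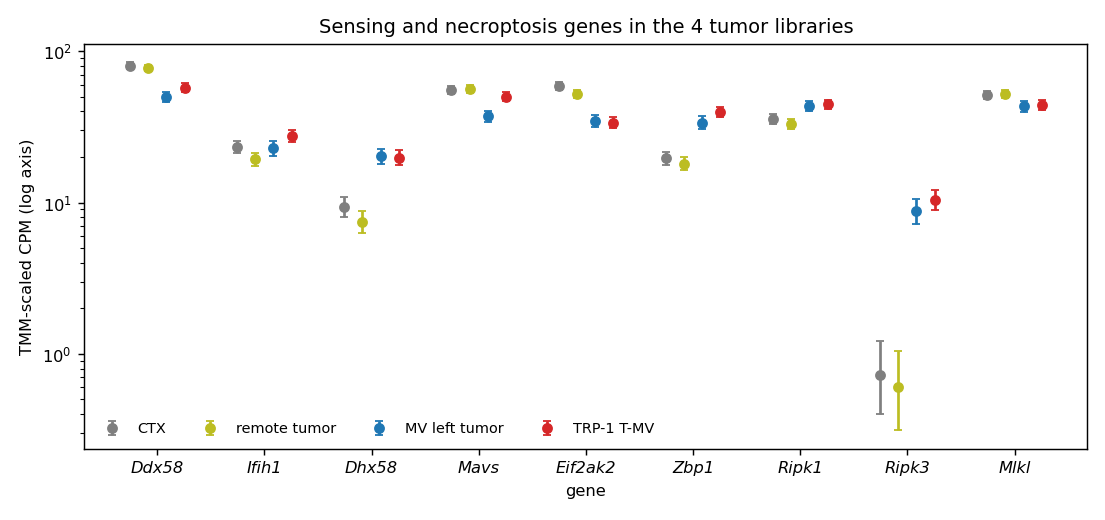
TMM-scaled CPM (log axis) of the 9 members with reads, by gene, in the 4 libraries. Points are single libraries and bars are 95% exact Poisson intervals for counting error. Ripk3 lies at 0.73 and 0.603 in CTX and the remote tumor and at 8.73 and 10.4 in the MV left tumor and TRP-1 T-MV.

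The scale itself bears on these ratios. Scaling on 12 housekeeping genes in place of TMM added 0.50 to every log2 ratio of the MV left tumor to CTX and 0.51 to every one of TRP-1 T-MV to CTX. Total counts added 0.24 in both, with 22.1% of genes called higher and 6.66% lower in the MV left tumor, against 22.3% and 6.97% for TRP-1 T-MV. On the housekeeping scale 28.4% of all genes were called higher and 3.92% lower in the MV left tumor against CTX, with 28.4% and 4.18% for TRP-1 T-MV. The 12 genes themselves had a median log2 ratio of −0.62 and −0.64 on the TMM scale, with 5 of 12 called lower in each and none higher. Which scale is nearer to the RNA content of the tumors was not tested.

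The RIG-I-like receptors came first. Ddx58 encodes RIG-I, the sensor of short double-stranded RNA and of RNA with a 5′ triphosphate (mm10 chromosome 4, 40203773 to 40239828, minus strand). Its level was 80.3 CPM in CTX, 77.6 in the remote tumor, 49.7 in the MV left tumor and 57.4 in TRP-1 T-MV. The virus-treated tumors had the lower values, and their intervals, 46.0 to 53.6 and 53.8 to 61.3, did not reach those of the other pair. The log2 ratio to CTX was −0.69 [−0.83, −0.56] in the MV left tumor and −0.48 [−0.60, −0.36] in TRP-1 T-MV, and neither reached the fold of 2, with values of −0.20 and 0.02 on the housekeeping scale, where the TRP-1 T-MV ratio changed sign.

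Ifih1 encodes MDA5, the sensor of long double-stranded RNA (chromosome 2, 62595798 to 62646255, minus strand). It stood at 23.2 CPM in CTX, 19.3 in the remote tumor, 22.9 in the MV left tumor and 27.6 in TRP-1 T-MV. TRP-1 T-MV was the highest, the remote tumor the lowest, and the virus-treated pair did not stand apart from the others. The log2 ratio to CTX was −0.02 [−0.24, 0.19] in the MV left tumor and 0.25 [0.06, 0.44] in TRP-1 T-MV, or 0.47 and 0.76 on the housekeeping scale.

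Dhx58 encodes LGP2, the remaining receptor of the family, which lacks the signalling domains of RIG-I and MDA5 and modulates their activity (chromosome 11, 100694884 to 100704271, minus strand). Its level was 9.39 CPM in CTX, 7.44 in the remote tumor, 20.2 in the MV left tumor and 19.8 in TRP-1 T-MV. Both virus-treated tumors were above both others, with no overlap of the intervals. It was 2.15-fold higher in the MV left tumor than in CTX, a log2 ratio of 1.11 [0.83, 1.39], and 2.11-fold higher in TRP-1 T-MV, at 1.08 [0.81, 1.35]. These ratios sit close to the fold of 2. They passed it under all 6 scalings. They stood at 0.98 and 0.94, not called, when the larger libraries were thinned to the smallest total in a single random draw. Against the remote tumor Dhx58 was 2.72-fold higher in the MV left tumor. An antisense gene, Dhx58os, overlaps 4.31% of its exon length, and the strand setting of the counts is not given in the sources used here.

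The 3 receptors can also be compared as read ratios within a library, which no scaling can change. Dhx58 had 0.117 reads per Ddx58 read in CTX, 0.0959 in the remote tumor, 0.407 in the MV left tumor and 0.345 in TRP-1 T-MV. That ratio was 3.48 times [2.81, 4.31] as high in the MV left tumor as in CTX, and 2.95 times [2.40, 3.62] in TRP-1 T-MV. For Ifih1 reads per Ddx58 read the values were 0.289, 0.249, 0.461 and 0.481 in the same order, which in the virus-treated tumors was 1.59 times [1.34, 1.90] and 1.66 times [1.42, 1.95] that of CTX. Both ratios were higher in the virus-treated than in the other tumors, with relatively more Dhx58 and Ifih1 and less Ddx58. These pairs were chosen after values were seen, so no support is drawn from the ratios, and the intervals cover counting error only. The remote tumor and CTX did not differ beyond counting error in either ratio, at 0.82 times [0.647, 1.04] and 0.862 times [0.737, 1.01].

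**Figure D2:**
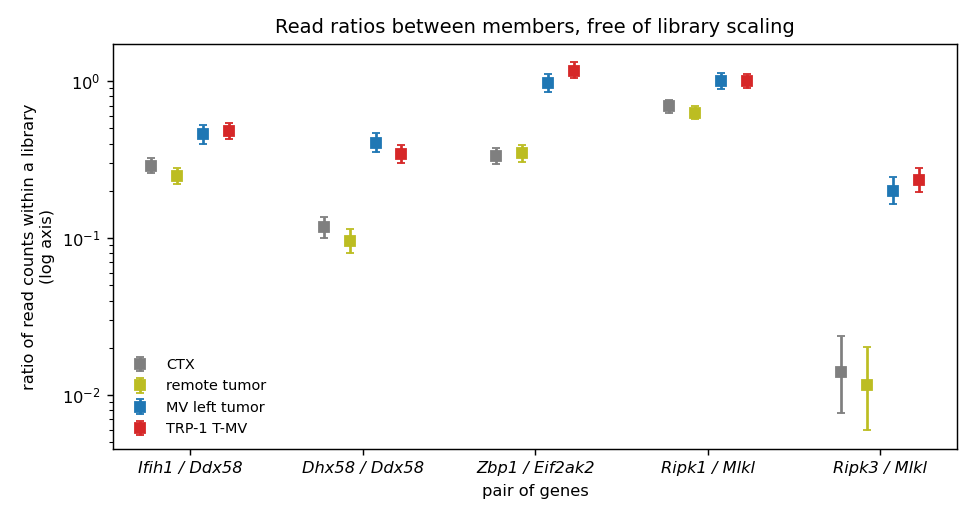
Ratio of read counts between members within each library (log axis), for 5 of 9 pairs of genes, which were chosen after values were seen. Squares are single libraries and bars are 95% exact binomial intervals. In each pair shown the MV left tumor and TRP-1 T-MV lie above CTX and the remote tumor, from Ripk1 per Mlkl at 1.00 in both against 0.692 and 0.63, to Ripk3 per Mlkl at 0.201 and 0.234 against 0.0141 and 0.0115. Given the choice of pairs, no support is drawn from that likeness. Mavs per Ddx58, not shown, was 1.09 times [0.944, 1.25] that of CTX in the MV left tumor and 1.27 times [1.12, 1.44] in TRP-1 T-MV.

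Promoter windows of 300 bases from RefSeq (GRCm38.p6, the build of mm10), 250 before to 50 after the annotated start, were found for 8 of the 10 members. Dhx58 and Zbp1 were not matched. Each was searched on both strands for the core of the interferon-stimulated response element, which is GAAA, any 2 bases, GAAA, and is bound by interferon-activated factors. Ddx58, Ifih1, Eif2ak2 and Ripk1 held 1 match each, in 4 of the 10 windows of the members, beside 3.44% of 32851 windows of all genes. A match is a description of the letters and not a measured site. The windows of the 2 RNA receptors are shown 5′ to 3′ on the gene's strand with the match in capitals, for Ddx58 at chr4:40239776-40240075 and for Ifih1 at chr2:62646206-62646505, both minus strand.
Ddx58: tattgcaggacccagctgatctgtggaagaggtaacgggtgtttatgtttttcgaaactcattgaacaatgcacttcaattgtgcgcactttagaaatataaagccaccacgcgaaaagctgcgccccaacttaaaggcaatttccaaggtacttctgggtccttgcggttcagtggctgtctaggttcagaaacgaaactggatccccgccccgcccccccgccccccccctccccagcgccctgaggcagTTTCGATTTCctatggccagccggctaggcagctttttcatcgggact
Ifih1: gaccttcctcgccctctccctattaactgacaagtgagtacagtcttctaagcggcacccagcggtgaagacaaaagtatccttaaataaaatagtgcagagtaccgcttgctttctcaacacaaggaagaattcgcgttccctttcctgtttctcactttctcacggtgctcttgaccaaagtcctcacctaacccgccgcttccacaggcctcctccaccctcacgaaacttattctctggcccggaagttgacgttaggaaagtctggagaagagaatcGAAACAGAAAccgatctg
The Ddx58 match lies at bases 253 to 262 of the window and is on the opposite strand, and that of Ifih1 lies at bases 283 to 292. Neither gene was called higher in any comparison made, and whether the element bears on the levels was not tested.

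Mavs encodes the adaptor through which RIG-I and MDA5 signal (chromosome 2, 131234063 to 131248025, plus strand). It stood at 55.1 CPM in CTX, 56.0 in the remote tumor, 37.1 in the MV left tumor and 50.1 in TRP-1 T-MV. The MV left tumor was the lowest and the other 3 lay close together. Its log2 ratio to CTX was −0.57 [−0.73, −0.42] in the MV left tumor, below 0 under all 6 scalings but only −0.075 on the housekeeping scale. In TRP-1 T-MV it was −0.14 [−0.27, −0.00], which turned to 0.10 by total counts and to 0.37 on the housekeeping scale. Between the 2 virus-treated tumors Mavs had the largest difference of any member, 1.35-fold higher in TRP-1 T-MV, a log2 ratio of 0.43 [0.27, 0.60] that did not reach the fold of 2.

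Eif2ak2 encodes PKR (chromosome 17, 78852564 to 78882573, minus strand). The level was 58.7 CPM in CTX, 52.2 in the remote tumor, 34.5 in the MV left tumor and 33.8 in TRP-1 T-MV. Here too the virus-treated pair had the lower values, without overlap of the intervals. The log2 ratio to CTX was −0.77 [−0.93, −0.61] and −0.80 [−0.95, −0.65], the lowest of the 9 members in both comparisons, and neither reached the fold of 2. It remained below 0 under all 6 scalings, at −0.27 and −0.29 on the housekeeping scale. The Eif2ak2 window at chr17:78882523-78882822, minus strand, holds the element as well, at bases 269 to 278. Whether the element bears on the ratios was not tested.
Eif2ak2: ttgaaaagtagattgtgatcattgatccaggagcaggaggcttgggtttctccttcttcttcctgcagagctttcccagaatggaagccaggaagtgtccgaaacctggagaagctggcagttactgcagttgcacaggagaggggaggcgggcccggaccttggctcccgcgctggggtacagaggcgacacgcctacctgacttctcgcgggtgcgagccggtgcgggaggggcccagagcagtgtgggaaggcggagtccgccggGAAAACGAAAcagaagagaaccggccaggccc

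Zbp1 encodes the sensor that binds left-handed double-stranded RNA and DNA and contacts RIPK3 (chromosome 2, 173206612 to 173218923, minus strand). It stood at 19.6 CPM in CTX, 18.1 in the remote tumor, 33.8 in the MV left tumor and 39.7 in TRP-1 T-MV. Both virus-treated tumors were above both others. The log2 ratio to CTX was 1.02 [0.83, 1.20] in TRP-1 T-MV, 2.02-fold, just past the rule, and 0.79 [0.59, 0.99] in the MV left tumor, 1.72-fold and not called. By total counts the MV left tumor value was 1.03 and on the housekeeping scale 1.28, both called, whereas thinning put the TRP-1 T-MV value at 0.91, not called. The 2 virus-treated libraries themselves stood at a log2 ratio of 0.23 [0.05, 0.41], so the call in one and not in the other marks a small difference around the threshold.

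Zbp1 and Eif2ak2, a pair chosen after values were seen, were also compared on a measure free of scaling. Eif2ak2 had the lowest ratio to CTX of the 9 members in both virus-treated tumors. The direction followed from that choice, and no support is drawn from it. There were 0.334 Zbp1 reads per Eif2ak2 read in CTX, 0.347 in the remote tumor, 0.981 in the MV left tumor and 1.17 in TRP-1 T-MV. The ratio was 2.93 times [2.46, 3.51] that of CTX in the MV left tumor and 3.51 times [2.97, 4.15] in TRP-1 T-MV, and 1.04 times [0.876, 1.23] in the remote tumor.

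The kinases and the executor of necroptosis differed widely in their ratios to CTX. Ripk3 encodes the kinase that activates MLKL (chromosome 14, 55784995 to 55788865, minus strand). It had 14 reads in CTX, 12 in the remote tumor, 118 in the MV left tumor and 167 in TRP-1 T-MV, or 0.73, 0.603, 8.73 and 10.4 CPM. The 2 groups of libraries were far apart, with intervals of 0.399 to 1.22 and 0.312 to 1.05 against 7.23 to 10.5 and 8.86 to 12.1. Ripk3 was 12.0-fold higher in the MV left tumor than in CTX, a log2 ratio of 3.58 [2.78, 4.49], and 14.2-fold higher in TRP-1 T-MV, at 3.83 [3.04, 4.73]. It was 14.5-fold higher in the MV left tumor than in the remote tumor. It was the member with the highest ratio in each of these comparisons and was called under every alternative run in them.

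Ripk1 encodes the kinase that joins tumor necrosis factor receptors to cell survival or death (chromosome 13, 34002363 to 34037147, plus strand). It stood at 35.7 CPM in CTX, 33.0 in the remote tumor, 43.5 in the MV left tumor and 44.5 in TRP-1 T-MV. The virus-treated pair was slightly above the other pair, with log2 ratios to CTX of 0.28 [0.12, 0.45] and 0.32 [0.16, 0.47], below the fold of 2 and above 0 under all 6 scalings. Exons of a pseudogene, Gm17084, and of Serpinb6a overlap 9.01% of its exon length.

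Mlkl encodes the protein that RIPK3 phosphorylates (chromosome 8, 111311797 to 111338177, minus strand). Its level was 51.6 CPM in CTX, 52.3 in the remote tumor, 43.4 in the MV left tumor and 44.3 in TRP-1 T-MV. The virus-treated pair was slightly below the other pair, and the intervals did not overlap. Log2 ratios to CTX of −0.25 [−0.40, −0.10] and −0.22 [−0.36, −0.08] turned to 0.24 and 0.29 on the housekeeping scale. Per Mlkl read, Ripk3 had 0.0141 reads in CTX and 0.0115 in the remote tumor, against 0.201 in the MV left tumor and 0.234 in TRP-1 T-MV. That ratio was 14.2 times [8.05, 27.1] that of CTX in the MV left tumor and 16.5 times [9.49, 31.2] in TRP-1 T-MV. Ripk3 per Ripk1 read was 9.81 times [5.54, 18.7] and 11.4 times [6.52, 21.5] as high. Ripk1 per Mlkl read was 1.45 times [1.24, 1.69] and 1.45 times [1.26, 1.68] that of CTX. No scaling affects these read ratios, but the pairs were chosen after values were seen, and no support is drawn from them.

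Promoter windows of the 2 kinases are printed as letters only, and a relation of the element to their ratios to CTX was not tested. They lie at chr13:34002624-34002923, plus strand, for the Ripk1 window with a match, at bases 246 to 255, and at chr14:55788808-55789107, minus strand, for Ripk3, which did not hold the element in these letters.
Ripk1: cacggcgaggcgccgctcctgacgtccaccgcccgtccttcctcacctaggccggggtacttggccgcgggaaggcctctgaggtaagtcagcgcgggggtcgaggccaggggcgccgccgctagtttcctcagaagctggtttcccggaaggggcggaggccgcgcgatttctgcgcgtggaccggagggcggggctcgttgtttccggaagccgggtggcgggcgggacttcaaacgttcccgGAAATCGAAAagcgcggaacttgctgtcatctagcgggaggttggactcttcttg
Ripk3: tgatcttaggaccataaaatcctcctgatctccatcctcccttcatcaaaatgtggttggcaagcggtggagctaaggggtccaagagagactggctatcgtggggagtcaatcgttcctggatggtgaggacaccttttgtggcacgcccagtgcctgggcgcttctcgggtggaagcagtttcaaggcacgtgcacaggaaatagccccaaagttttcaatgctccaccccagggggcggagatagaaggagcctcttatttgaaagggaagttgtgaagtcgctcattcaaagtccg
Ripk1 has a further window, at chr13:34002113-34002412, plus strand, which held no match. No match says only that those letters are absent from a window.

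**Figure D3:**
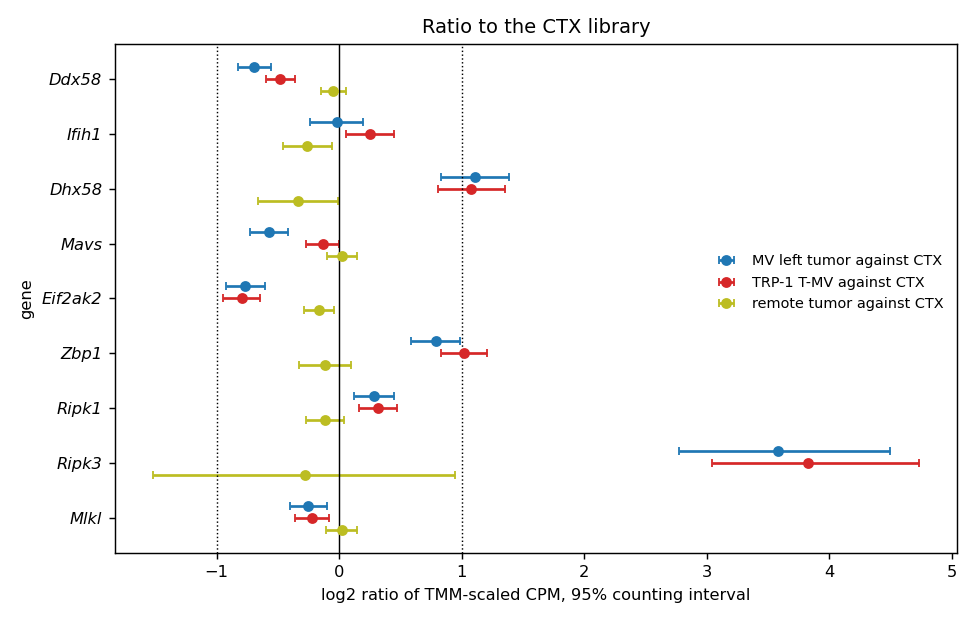
Log2 ratio of TMM-scaled CPM to the CTX library for the 9 members with reads. Points are ratios of 2 single libraries, bars are 95% exact conditional binomial intervals, and dotted lines mark the fold of 2. Ripk3 lies at 3.58 in the MV left tumor and 3.83 in TRP-1 T-MV, while all 9 ratios of the remote tumor lie between −0.34 and 0.02.

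Trex1 encodes an exonuclease of cytosolic DNA, and so belongs to DNA and not to RNA sensing (chromosome 9, 109057933 to 109059734, minus strand). It had 0 reads in all 4 libraries. In the GENCODE M21 annotation all 1147 bases of its exons also lie in exons of Atrip on the same strand, and Atrip had 0 reads in all 4 libraries too. How reads in 2 overlapping genes were counted is not given in the sources used here, so no level of Trex1 is read from the 0 and no ratio is given.

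Immune cell markers were higher in the same libraries as Ripk3, Dhx58 and Zbp1. The summed level of 8 macrophage and monocyte genes was 64.5 CPM in CTX, 77.2 in the remote tumor, 855 in the MV left tumor and 1260 in TRP-1 T-MV. For 7 T cell genes it was 8.71, 8.69, 206 and 205 in the same order, and for 6 dendritic cell genes 9.8, 9.45, 154 and 217. In the MV left tumor against CTX, 6 of 8 macrophage, 7 of 7 T cell and 3 of 4 measured dendritic cell genes were called higher, and 7 of 7 melanocyte genes lower. No gene of these 4 lists was at 0 in any library. Of the dendritic cell genes, Ccr7 had 4, 10, 1405 and 2463 reads. Xcr1, with 2, 2, 13 and 8, and Clec9a, with 5, 1, 9 and 5, were below the minimum. For 6 neutrophil genes the sum was 0.73, 1.36, 14.1 and 21.0, with 3 of 6 at 0 in each of CTX and the remote tumor and 3 of 3 measured called higher. Below the minimum were Ly6g with 1, 0, 1 and 3 reads, Retnlg with 0, 0, 0 and 1, and Cxcr2 with 0, 1, 11 and 7. The sum was 2.45, 2.51, 14.7 and 14.2 for 4 NK cell genes, of which only Klrk1 and Eomes were measured, both called higher. The other NK cell genes were flat and below the minimum, Ncr1 with 3, 3, 1 and 4 reads and Klrb1c with 2, 2, 3 and 3. For 3 endothelial genes the sum was 6.52, 6.43, 16.4 and 17.6, 2 of 3 called higher. The 4 fibroblast genes stood at 29.4, 29.6, 33.2 and 33.0, with none called. In the remote tumor against CTX, 3 marker genes were called higher, Adgre1 of macrophages at a log2 ratio of 1.09 on 75 and 34 reads, Itgax of dendritic cells at 1.06 on 39 and 18, and Csf3r of neutrophils at 1.13 on 25 and 11. The reads on Rn45s, Lars2 and Rpph1 were likewise the higher in the 2 virus-treated libraries, at 1.64% and 1.62%. The part of these cells, or of whatever sets the share of those reads, in the levels of Ripk3, Dhx58 and Zbp1 was not tested. In bulk tumor RNA, a change in the number of cells of a type and a change in RNA per cell cannot be told apart.

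Levels of different genes were compared per kilobase of exon, counting every base in an exon of any annotated transcript. That length was 8165 bases for Ifih1 and 2292 for Ripk3. The annotation used for counting is not given, and the order depends on these lengths. In CTX the order was Mlkl at 22.4 CPM per kilobase, Mavs at 16.5, Eif2ak2 at 11.5, Ddx58 at 11.4, Zbp1 at 5.56, Ripk1 at 4.28, Dhx58 at 2.87, Ifih1 at 2.84 and Ripk3 at 0.319. Eif2ak2 and Ddx58 did not differ beyond their counting intervals, nor did Dhx58 and Ifih1. Mlkl and Mavs were first and second in all 4 libraries. In the MV left tumor Zbp1 came next at 9.58, with an interval that overlapped that of Mavs at 11.1, and Ripk3 at 3.81 stood above Ifih1 at 2.8. In TRP-1 T-MV Zbp1 likewise followed Mavs, at 11.2, and Ripk3 at 4.52 again stood above Ifih1 at 3.38. On these lengths Ripk3 was the lowest of the 9 members with reads in CTX and the remote tumor, and Ifih1 in the 2 virus-treated tumors. Without division by length Ifih1 stood above Ripk3 there. CPM was 22.9 against 8.73 in the MV left tumor and 27.6 against 10.4 in TRP-1 T-MV.

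As shares of all reads on the members, Ddx58 took 24.0% in CTX [23.0, 25.1] and 24.5% in the remote tumor, and 16.9% in the MV left tumor [15.8, 18.1] and 17.5% in TRP-1 T-MV. Zbp1 took 5.87% and 5.73% in the first pair and 11.5% and 12.1% in the second. Ripk3 took 0.218% and 0.19%, against 2.97% and 3.17%. These are exact binomial intervals and the shares carry no scaling.

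The remote tumor, on the other flank of mice whose left tumor received MV, kept close to CTX throughout. The 9 log2 ratios lay between −0.34 for Dhx58 [−0.66, −0.01] and 0.02 for Mavs [−0.10, 0.15], with a median of −0.12 beside −0.00 over all genes compared. Ifih1 at −0.26 [−0.46, −0.06] and Eif2ak2 at −0.17 [−0.29, −0.05] also had intervals below 0, none of them near the fold of 2. The interval of Ripk3, −0.28 [−1.52, 0.94], was wide because it rested on 12 and 14 reads, and at this depth a fold of 2 lower was not detectable. Set against the MV left tumor of the same treatment group, the remote tumor had 2 members called lower, Dhx58 and Ripk3, where 18.6% of all genes were called higher in the injected tumor and 11.7% lower on the TMM scale and 30.1% and 3.91% on the housekeeping scale.

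The 2 virus-treated tumors were close to each other. No member was called between TRP-1 T-MV and the MV left tumor, where 0.562% of genes were called higher and 0.217% lower. Besides Mavs, the log2 ratio was 0.27 [0.06, 0.49] for Ifih1, 0.25 [−0.10, 0.60] for Ripk3, 0.23 for Zbp1 and 0.21 [0.07, 0.36] for Ddx58. Dhx58, Eif2ak2, Ripk1 and Mlkl lay between −0.03 and 0.03 with intervals that included 0. The median of the 9 was 0.21, beside −0.01 over all genes compared.

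**Figure D4:**
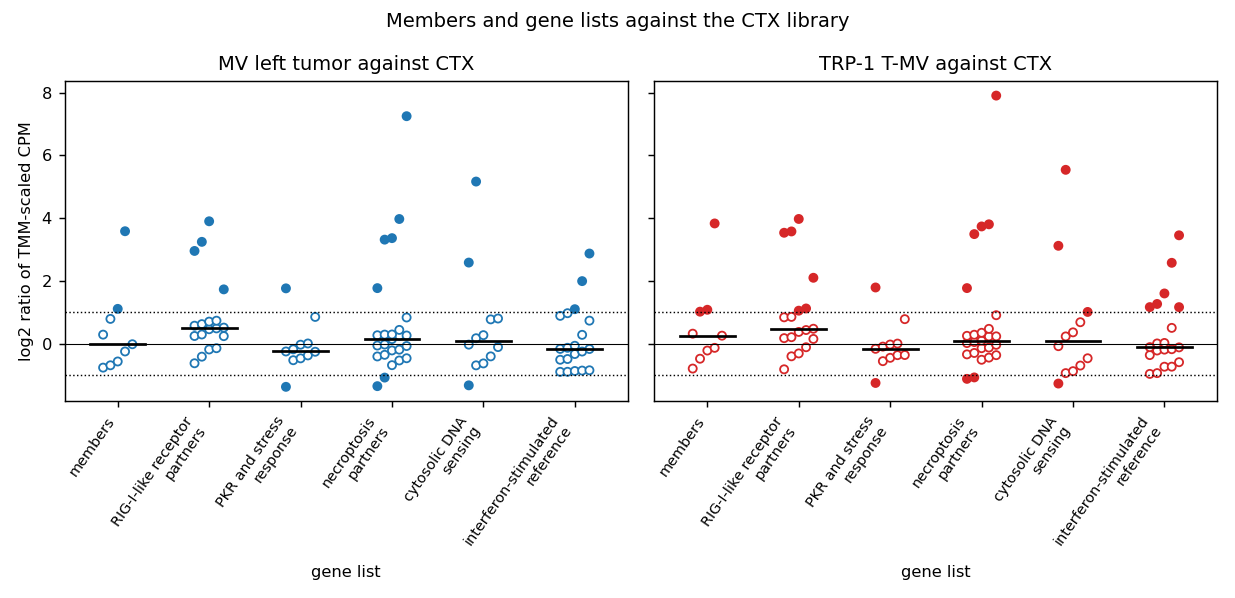
Log2 ratio of TMM-scaled CPM to CTX for the members and 5 gene lists, in the MV left tumor (left) and TRP-1 T-MV (right). Each circle is 1 gene, filled where it was called, bars are medians and dotted lines mark the fold of 2. The member medians are −0.02 and 0.25, or 0.47 and 0.76 on the housekeeping scale, and the highest point is the death receptor gene Fas at 7.25 and 7.90.

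The pathway lists are given beside the shares over all genes, 18.1% higher and 11.1% lower in the MV left tumor against CTX, and 18.5% and 11.7% for TRP-1 T-MV. Of 18 partners of the RIG-I-like receptors, 4 were called higher and none lower in the MV left tumor, and 6 and none in TRP-1 T-MV, with medians of 0.50 and 0.45. Tnfaip3, which encodes the deubiquitinase A20 that restrains inflammatory signalling, had 70 reads in CTX, 81 in the remote tumor, 735 in the MV left tumor and 922 in TRP-1 T-MV, with log2 ratios to CTX of 3.90 [3.54, 4.27] and 3.97. Zcchc3, a cofactor of nucleic acid sensors, had 0, 2, 20 and 30 reads in that order, and its log2 ratio of 3.24 in the MV left tumor is a lower bound against a floor of 3 counts. The lowest were the helicase gene Dhx36 at −0.63 and Rnf135, encoding a ubiquitin ligase of RIG-I, at −0.42, neither called. On the housekeeping scale 9 of the 18 were called higher in the MV left tumor and 8 in TRP-1 T-MV, beside 28.4% of all genes in each.

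The interferon genes listed, some of which these receptors are known to induce, had almost no reads. Of 10 type I and type III interferon genes, Ifna2 had 1 read in each virus-treated tumor and Ifna4 had 1 read in TRP-1 T-MV. The other 8, Ifnb1 among them, had 0 in all 4 libraries, which allows up to 0.222 CPM in the MV left tumor and 0.186 in TRP-1 T-MV at 3 counts. Interferon-stimulated genes had reads, and 20 were compared. In the MV left tumor 3 were called higher and none lower, beside 18.1% and 11.1% of all genes, and their median was −0.17. Housekeeping scaling brought the number called higher to 6 of 20, beside 28.4% of all genes. It moved their median to 0.32, where that of all genes was 0.44. In TRP-1 T-MV 6 were called higher and none lower, beside 18.5% and 11.7%, with a median of −0.12. There the housekeeping scale gave 7 higher, beside 28.4% of all genes, and a median of 0.39 beside 0.44 over all genes. Mx1, an antiviral GTPase gene, was at 2.87 and 3.45 and Oasl1 at 1.99 and 2.57, while Bst2, encoding tetherin, at −0.90 and −0.74, and Ifit2 at −0.90 and −0.94, were not called.

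Around PKR, 1 of 11 partners was called higher and 1 lower in each virus-treated tumor against CTX, beside 18.1% and 11.1% of all genes in the MV left tumor and 18.5% and 11.7% for TRP-1 T-MV, with medians of −0.25 and −0.17 that were 0.24 and 0.34 on the housekeeping scale. Ppp1r15a, encoding GADD34 which reverses the translation block, had 776 reads in CTX, 887 in the remote tumor, 1852 in the MV left tumor and 2250 in TRP-1 T-MV, log2 ratios of 1.76 [1.64, 1.88] and 1.79. Prkra, encoding the PKR activator PACT, had 631, 677, 171 and 222 reads and ratios of −1.38 [−1.63, −1.13] and −1.26. On the housekeeping scale 2 of the 11 were called higher and none lower in each virus-treated tumor. Over all genes that scale gave 28.4% higher in each, 3.92% and 4.18% lower, and a median of 0.44 in both. Eif2ak3, encoding the related kinase PERK, at 0.85 and 0.78, and Atf4, a transcription factor of the stress response, at −0.53 and −0.56, were not called on the TMM scale.

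Of 25 necroptosis partners compared, 5 were called higher and 2 lower in each virus-treated tumor against CTX, near the shares over all genes of 18.1% and 11.1% in the MV left tumor and 18.5% and 11.7% for TRP-1 T-MV. Their medians were 0.14 and 0.09, or 0.64 and 0.60 on the housekeeping scale, where 6 were called higher and none lower in each. On that scale 28.4% of all genes were called higher in each and 3.92% and 4.18% lower, with a median of 0.44 in both. Fasl, a further gene of the list, had 0 reads in CTX and the remote tumor, 13 in the MV left tumor and 11 in TRP-1 T-MV, below the minimum. Fas, a death receptor gene, had 1 read in CTX, 0 in the remote tumor, 107 in the MV left tumor and 201 in TRP-1 T-MV, log2 ratios to CTX of 7.25 [4.74, 12.56] and 7.90 [5.41, 13.21]. Tnf, the ligand that starts the RIPK1 pathway, had 24, 143, 265 and 268 reads, ratios of 3.97 and 3.73, and was the one gene of the pathway lists called in the remote tumor on the TMM scale, at 2.52 [1.89, 3.21]. The 2 called lower were Tlr3, the endosomal receptor of double-stranded RNA, at −1.36 and −1.08, and Fadd, the adaptor that joins death receptors to caspase-8, at −1.08 and −1.12. Neither was called on the housekeeping scale.

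In the cytosolic DNA sensing list, to which Trex1 is related, 2 of 12 genes were called higher and 1 lower in the MV left tumor against CTX, and 3 and 1 in TRP-1 T-MV, beside 18.1% and 11.1%, and 18.5% and 11.7%, of all genes. The medians were 0.07 in both, or 0.56 and 0.58 on the housekeeping scale, where 4 were called higher and none lower in each. All genes on that scale had 28.4% called higher in each, 3.92% and 4.18% lower, and a median of 0.44 in both. In the remote tumor Enpp1, encoding an enzyme that degrades the messenger cGAMP, had a log2 ratio to CTX of −0.99 [−1.77, −0.25], not called on the TMM scale, and 1 gene of the list was called lower by total counts and on the housekeeping scale. Aim2, the DNA sensor that forms an inflammasome, had 4 reads in CTX, 8 in the remote tumor, 101 in the MV left tumor and 156 in TRP-1 T-MV, log2 ratios to CTX of 5.16 and 5.54. Ifi204 stood at 2.58 and 3.12. Banf1, encoding a chromatin protein that limits DNA sensing, was called lower at −1.33 and −1.27, a call lost on the housekeeping scale, and Rnaseh2c, a subunit gene of ribonuclease H2, was at −0.69 and −0.94, not called.

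Genes whose profile over the 4 libraries was most like that of a member were found by the distance of centred log2(CPM + 1) values. The search covered 11122 other genes with a mean count of at least 50, with unnamed gene models left out. With 4 libraries that fall into 2 like pairs, such a likeness is a weak description. The 3 nearest were Sertad1, Map3k1 and Cyp4f13 for Zbp1, at distances of 0.03, 0.06 and 0.06, and Rundc1, Ocel1 and Plekha4 for Ifih1, at 0.06, 0.06 and 0.07. For Mlkl they were Ywhaz, Ap3d1 and Rab7, at 0.01, 0.02 and 0.02, and for Ripk1 Ulk2, Ddx52 and Tent2, at 0.01, 0.02 and 0.02. Ywhaz is itself one of the 12 housekeeping genes used for scaling, at 779, 790, 662 and 671 CPM in CTX, the remote tumor, the MV left tumor and TRP-1 T-MV.

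**Figure D5:**
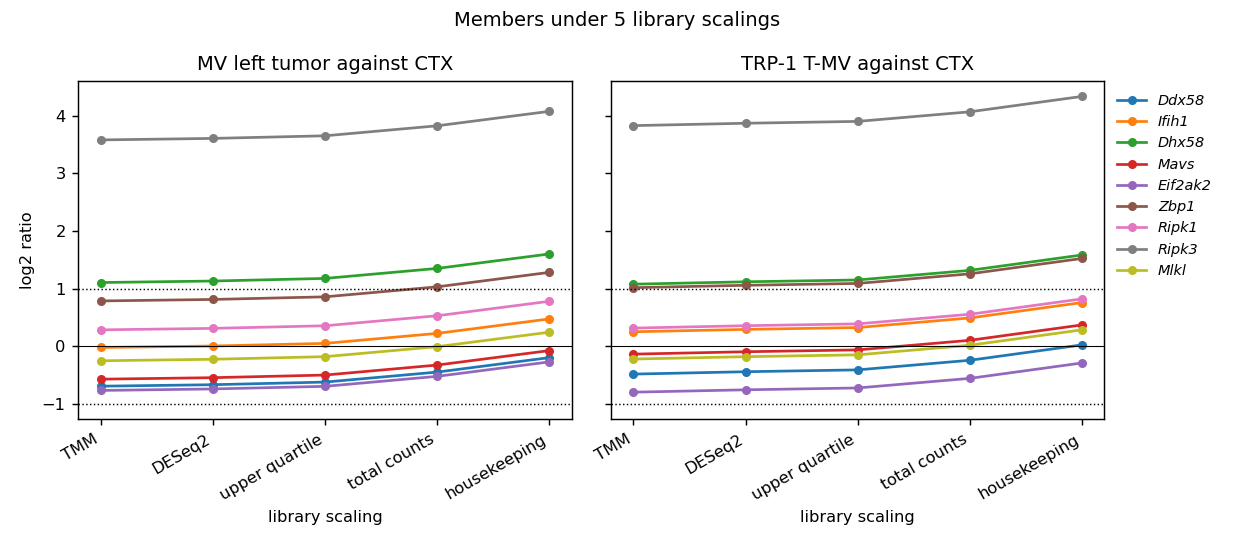
Log2 ratio to CTX of the 9 members under 5 library scalings, in the MV left tumor (left) and TRP-1 T-MV (right). Each line joins 1 gene's values and dotted lines mark the fold of 2. The order of the genes cannot change between scales, since each scaling shifts every ratio of a comparison alike. Ripk3 and Dhx58 lie above the fold of 2 throughout, and no gene lies below −1.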

How the data were processed

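Each deposited table gives unnormalized read counts by gene symbol for 1 library. HISAT2, featureCounts and the mm10 build appear in the submitters' processing notes, with no versions. The annotation, strand setting and handling of overlapping genes were not given in the sources used here.

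Groups came from sample titles. Libraries were scaled with TMM factors (edgeR 4.0.16, R 4.3.3). A mean of 10 reads over the 4 libraries was the minimum for comparison, passed by 13357 genes, and pairs with 3 reads or fewer in both libraries got no ratio. Intervals are 95% exact conditional binomial for ratios and exact Poisson for levels (scipy 1.17.1, numpy 2.4.6, pandas 2.3.3, Python 3.11.15, matplotlib 3.10.9). A library at 0 was set to a floor of 3 counts. Comparisons were made between 5 pairs of libraries, without p-values, since each group had 1 library. Positions and exon lengths came from GENCODE M21. Read ratios within a library used 9 gene pairs chosen after values were seen.

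Named were all 10 members, the 2 highest and 2 lowest of each pathway list in the MV left tumor against CTX, and genes of those lists called in the remote tumor. The pathway lists were partners of the RIG-I-like receptors, interferon genes, PKR partners, necroptosis partners, DNA sensing, and interferon-stimulated genes. Further lists were housekeeping genes and markers of melanocytes, T cells, macrophages, neutrophils, dendritic cells, NK cells, fibroblasts and endothelium. Members and lists were chosen with earlier results of these data known. A planned search of protein motifs was not made, and 1 further marker list and 1 further promoter motif are not reported here. Alternatives were scaling by total counts, by size factors of DESeq2 1.42.0, by upper quartiles and by housekeeping genes, TMM without ribosomal and 4 other abundant RNAs, no minimum count, a minimum of 50, a ratio of 1.5, an interval excluding a ratio of 2, and thinning to the smallest total. The thinning was a single random draw.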

Additional observations from a re-analysis of the deposited data

How the results depend on the processing

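No paired analysis was possible because no group held more than 1 library, which also prevented leaving out replicates. No called ratio of a member changed sign under any alternative. The scalings could not have done so, since they shifted a log2 ratio by at most 0.52 and a call needs a fold of 2. Uncalled ratios did change sign on the housekeeping scale, among them Mlkl in both virus-treated tumors against CTX, and Mavs and Ddx58 in TRP-1 T-MV. Under the 6 alternatives that can move a ratio (5 scalings and thinning) 225 of 270 ratios of single members stayed within the counting interval of the reported one. Requiring the interval to exclude a ratio of 2 left 1 member called higher in the MV left tumor and 1 in TRP-1 T-MV against CTX, and thinning likewise left 1 and 1, Ripk3 in each case. The shares of all genes called higher were 13.8% and 14.4% under that rule, and 17.8% and 18.0% after thinning. A ratio of 1.5 gave 2 members lower in the MV left tumor and 1 in TRP-1 T-MV against CTX, and 3 in the MV left tumor against the remote tumor, where 0 were called before. Of all genes, 24.1%, 24.8% and 24.6% were called lower in those comparisons at that ratio. The median over members moved with total counts to 0.22, 0.49 and 0.50 and with housekeeping scaling to 0.47, 0.76 and 0.76, for the MV left tumor and TRP-1 T-MV against CTX and the MV left tumor against the remote tumor, since these scalings shift every ratio alike. Over all genes, counts called higher and lower are given in that same order of comparisons. They were 2411 and 1488, 2476 and 1559, and 2483 and 1567 as reported. Housekeeping scaling gave 3800 and 524, 3800 and 558, and 4019 and 522, and total counts 2955 and 890, 2973 and 931, and 3106 and 902. A ratio of 1.5 gave 3378 and 3222, 3359 and 3316, and 3476 and 3289. The interval excluding 2 left 885, 961 and 965 lower, and a minimum of 50 reads left 1540, 1575 and 1604 higher. In the remote tumor against CTX, 59 and 30 became 31 and 7 with a minimum of 50, 96 and 79 with a ratio of 1.5, 7 and 0 with the interval excluding 2, and 51 lower without a minimum. Between the 2 virus-treated tumors, 75 and 29 became 10 and 3, 326 and 70, 0 and 1, and 126 and 63 under those settings, and 16 lower after thinning. Depth limited Ripk3 most, with 12 and 14 reads in the remote tumor and CTX.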
